A study of Mus musculus with 20 samples.

Results

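AP-1 is a dimeric transcription factor, and 9 genes of its family were followed here: Fos, Fosb and Fosl2 of the FOS group, Jun, Junb and Jund of the JUN group, Batf and Batf3 of the BATF group, and Atf3. They were taken by symbol from a fixed list, 9 of the 23382 gene symbols in the files. Of these, 7 had a level of at least 1 TPM (a unit corrected for gene length and library size) in at least 5 of 20 libraries and could be tested, among 11386 genes that did. Fosl2 and Batf3 did not reach that level. The libraries came from mouse germinal centre B cells, sorted as B220+FAS+GL7+ cells into centroblasts (CXCR4+CD86-, the dividing cells of the dark zone) and centrocytes (CXCR4-CD86+, the cells of the light zone that compete for antigen and for signals from T cells). Each sort was made from 2 genotypes, with 5 libraries per combination. Controls were Cgamma1Cre:+/- and wild type for Myd88L252P, and mutants were Cgamma1Cre:+/- and Myd88L252P:+/-, so that the Cre allele was shared by all 4 groups. Cgamma1Cre is driven from the germline transcript of the IgG1 constant region, which germinal centre B cells switch on, and the extent of recombination was not measured here. MYD88 is the adaptor of Toll-like and interleukin-1 receptors, and the L252P substitution is the mouse counterpart of an activating substitution found in human B cell lymphomas. The labels give no age, strain or immunisation, and do not say that libraries came from separate mice, so that the p-values measure the spread between these libraries, which may in part be technical.

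FOS proteins cannot pair with themselves and bind DNA as dimers with JUN proteins, through a leucine zipper next to a basic DNA-binding stretch. Fos, Fosb, Jun and Junb are immediate early genes, transcribed within minutes of a signal through the RAS, ERK, JNK and p38 kinases and with short-lived mRNAs. BATF and BATF3 have the zipper and the basic stretch but little else: they compete with FOS for JUN partners, and BATF-JUN dimers bind DNA together with IRF4 or IRF8. In B cells Batf is known to be needed for class switching and for the germinal centre response. ATF3, a stress-induced member of the family, pairs with JUN proteins or with itself.

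The 250 bases before the RefSeq start site (build GRCm38.p6, the assembly that mm10 also names) are printed for Fos, Fosb and Jun, which were lower in mutant than in control centroblasts, and for Batf, which was higher. Bases that a GENCODE exon covers were left off, so the Fosb window ends 7 bases and the Batf window 52 bases before the start site. Capitals mark matches to the motifs searched, on either strand.
Fos, chr12:85473640-85473889, plus strand: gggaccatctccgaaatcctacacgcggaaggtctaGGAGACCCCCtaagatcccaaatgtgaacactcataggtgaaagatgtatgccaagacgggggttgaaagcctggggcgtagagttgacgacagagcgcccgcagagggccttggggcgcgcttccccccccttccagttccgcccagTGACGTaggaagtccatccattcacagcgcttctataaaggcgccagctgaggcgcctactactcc
Fosb, chr7:19310052-19310295, minus strand: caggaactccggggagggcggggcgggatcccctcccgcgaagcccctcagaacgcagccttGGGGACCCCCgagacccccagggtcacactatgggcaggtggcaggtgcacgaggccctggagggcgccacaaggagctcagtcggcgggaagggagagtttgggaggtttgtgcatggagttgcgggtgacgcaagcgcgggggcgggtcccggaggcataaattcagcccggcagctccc
Jun, chr4:95052223-95052472, minus strand: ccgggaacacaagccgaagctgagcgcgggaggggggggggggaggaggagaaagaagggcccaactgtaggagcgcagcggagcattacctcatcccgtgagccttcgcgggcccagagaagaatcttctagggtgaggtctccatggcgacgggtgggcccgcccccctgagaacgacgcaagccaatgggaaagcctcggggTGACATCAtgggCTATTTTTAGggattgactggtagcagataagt
Batf, chr12:85686470-85686668, plus strand: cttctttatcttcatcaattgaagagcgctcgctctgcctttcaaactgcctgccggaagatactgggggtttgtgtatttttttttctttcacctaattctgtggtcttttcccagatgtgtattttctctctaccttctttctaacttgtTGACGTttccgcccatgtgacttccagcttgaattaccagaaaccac

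In the Fos window the capitals are an NF-kB site at bases -214 to -205 and the cAMP response element core TGACGT at -66 to -61. The Fosb window holds an NF-kB site at -188 to -179. The Jun window holds TGACATCA, the AP-1 site variant known from the Jun promoter, at -45 to -38 and a MEF2 site at -33 to -24. The Batf window holds TGACGT at -98 to -93. The AP-1 site TGACTCA, the cAMP response element TGACGTCA and the CArG box were found in 0 of the 9 members' windows, beside 4.46%, 1.55% and 1.47% of 32851 windows of the same length in the RefSeq table. Bases outside the windows were not searched, so a CArG box or other site further upstream would have been missed. The counts thus do not show that the promoter of Fos or of another member lacks such a site. The NF-kB site was found in 3 members (Fos, Fosb and Fosl2) and in 3.9% of all windows, TGACGT in 3 members (Fos, Batf and Atf3) and 6.47%, the MEF2 site in 2 (Jun and Atf3) and 2.92%, TGACATCA in 1 (Jun) and 2.93%, and the STAT site TTCNNNGAA in 1 (Batf3) and 7.02%. The windows of Junb and Jund held none of these letters. TGACGT, TGACATCA and the MEF2 site were added to the search after the windows had been read; TGACGT lies within TGACGTCA. Each match describes letters and shows no binding.

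Fos was the member with the highest mean in all 4 groups, and its level was lower in mutants in both cell types. In centroblasts the 5 control libraries had 161, 146, 158, 199.9 and 218 TPM of Fos and the 5 mutant libraries 66.9, 77.6, 98.0, 56.8 and 51.6 TPM. In centrocytes the controls had 241, 213, 274, 263 and 299 TPM and the mutants 81.6, 112, 135, 169 and 111 TPM. The groups overlapped in neither cell type, and every mutant centrocyte library but that of replicate 4 lay below the lowest control centroblast library. The means were 176.5 ± 31.0 and 70.2 ± 18.4 TPM in control and mutant centroblasts, and 258 ± 32.5 and 122 ± 32.4 TPM in control and mutant centrocytes (SD, n = 5 each). Fos fell by 1.34 ± 0.17 in log2(TPM + 1) in centroblasts, a 2.53-fold lower level (limma, adjusted p = 2.25e-04), and by 1.11 ± 0.17 in centrocytes, 2.16-fold lower (adjusted p = 0.00197). Errors of log2 differences are standard errors, and p-values were adjusted over all genes tested by the method of Benjamini and Hochberg.

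Batf moved the other way. Control centroblasts had 27.9, 27.6, 33.7, 29.4 and 27.4 TPM of Batf and mutant centroblasts 53.7, 72.8, 55.3, 39.3 and 49.5 TPM. Control centrocytes had 65.4, 54.4, 66.5, 59.3 and 65.8 TPM and mutant centrocytes 92.8, 132, 106, 89.0 and 100.4 TPM. Again the groups of each cell type did not overlap. Mutant centroblast libraries 2 and 3 reached or passed the range of control centrocytes, while libraries 1, 4 and 5 lay below it. The 4 means, in the order of the groups just given, were 29.2 ± 2.62, 54.1 ± 12.2, 62.3 ± 5.27 and 104.0 ± 16.8 TPM (SD, n = 5 each). Batf rose by 0.85 ± 0.13 in log2(TPM + 1) in mutant centroblasts (1.80-fold, limma adjusted p = 0.0013) and by 0.72 ± 0.13 in mutant centrocytes (1.65-fold, adjusted p = 0.00516). The calls of Fos and Batf in both cell types held under every alternative run, including the fit of each pair of groups alone, where the adjusted p in centroblasts was 0.00763 for Fos and 0.0441 for Batf.

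**Figure D1:**
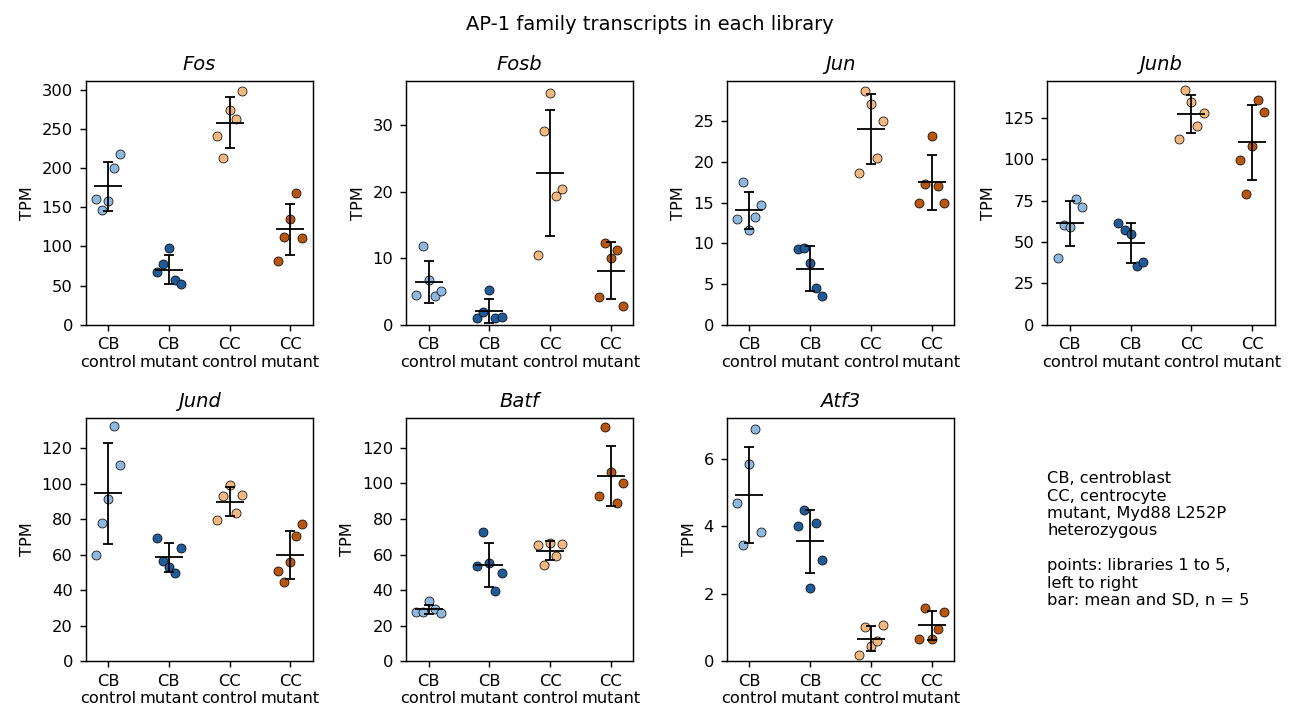
TPM of the 7 tested members (vertical axes, each with its own scale from 0) in each library, by group; points are libraries 1 to 5 from left to right, and bars the mean and SD of 5. The 5 mutant libraries lie below the 5 controls for Fos and above them for Batf in both cell types, while Junb, with mutant libraries between 35.6 and 61.5 TPM in centroblasts against 40.6 to 76.0 TPM in controls, overlaps.

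Fosb, a close relative of Fos with the same partners, was far less abundant than Fos in every group. It had 4.43, 11.9, 6.69, 4.30 and 5.02 TPM in control centroblasts and 1.08, 1.85, 5.23, 1.07 and 1.13 TPM in mutant centroblasts. Mutant library 3 alone lay within the control range. Control centrocytes had 10.5, 29.1, 34.9, 19.3 and 20.3 TPM and mutant centrocytes 4.16, 12.2, 10.1, 11.2 and 2.86 TPM, with control library 1 inside the mutant range. The difference of Fosb in log2(TPM + 1) was -1.34 ± 0.38 in centroblasts (limma adjusted p = 0.0459) and -1.45 ± 0.38 in centrocytes (adjusted p = 0.0638). The 2 differences were of similar size, on either side of the threshold. The centroblast call was lost without any one of 12 libraries (control centroblasts 1 to 5, mutant centroblasts 4 and 5, control centrocytes 2, 4 and 5, and mutant centrocytes 3 and 4), with an adjusted p of up to 0.138. It was also lost with no filter (0.0843), with no trend or robust step (0.0576), in the centroblast libraries alone (0.114) and without mutant centroblasts 4 and 5 together (0.28). The centrocyte difference was called after rescaling the TPM by the median of ratios (-1.46, adjusted p = 0.0327), and without mutant centroblast 3, control centrocyte 1 or mutant centrocyte 4. Fosl2, the third FOS gene, was at or below 0.372 TPM in every library.

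Of the JUN genes, which can pair with FOS, BATF and each other, Jun was lower in mutant centroblasts. Jun had 13.0, 17.6, 11.7, 13.3 and 14.8 TPM in control centroblasts and 9.29, 9.49, 7.63, 4.57 and 3.51 TPM in mutant centroblasts, with no overlap. Control centrocytes had 18.7, 28.7, 27.2, 20.4 and 25.1 TPM and mutant centrocytes 14.9, 17.3, 23.2, 17.1 and 14.9 TPM, where mutant library 3 lay within the control range. Jun fell by 0.999 ± 0.20 in log2(TPM + 1) in centroblasts (limma adjusted p = 0.0104). In centrocytes the difference was -0.44 ± 0.20 (95% interval -0.86 to -0.02, adjusted p = 0.485). The centroblast call of Jun was lost where the centroblast libraries were fitted alone (adjusted p = 0.109), and without mutant centroblasts 4 and 5, which had the lowest Jun, the difference was -0.61 (adjusted p = 0.0322).

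Jund, the JUN gene known for steady expression, was lower in mutant than in control centroblasts by a smaller step. Control centroblasts had 59.9, 77.9, 91.5, 132.6 and 110.5 TPM, and mutant centroblasts 69.6, 56.5, 52.9, 49.5 and 63.9 TPM, so that control library 1 lay among the mutants. In centrocytes the controls had 79.4, 92.9, 99.4, 83.4 and 93.6 TPM and the mutants 50.7, 44.8, 55.8, 70.6 and 77.1 TPM, with no overlap. Jund fell by 0.64 ± 0.17 in log2(TPM + 1) in centroblasts (limma adjusted p = 0.0374), and differed by -0.60 ± 0.17 in centrocytes (adjusted p = 0.103; 0.0331, and so called, in the centrocyte libraries alone). The centroblast call did not stand with no filter (adjusted p = 0.0687), with no trend or robust step (0.0525), in the centroblast libraries alone (0.2) or without mutant centroblasts 4 and 5 (0.115). It did not stand either when TPM were rescaled by the median of ratios (-0.46, adjusted p = 0.13), nor without any one of control centroblasts 2 to 5 or mutant centroblasts 3 and 4 (adjusted p up to 0.0993).

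Junb, an immediate early JUN gene and a partner of BATF, was called in neither cell type. It had 40.6, 60.2, 59.3, 76.0 and 70.9 TPM in control and 61.5, 57.4, 54.6, 35.6 and 37.9 TPM in mutant centroblasts, and 112, 142, 135, 120.0 and 128 TPM in control and 99.8, 79.0, 108, 136 and 128 TPM in mutant centrocytes. The groups overlapped in both cell types. The difference in log2(TPM + 1) was -0.31 in centroblasts (95% interval -0.67 to 0.05, limma adjusted p = 0.213) and -0.23 in centrocytes (-0.59 to 0.13, adjusted p = 0.864). The intervals leave room for a fall of up to about the size seen for Jund.

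Atf3 was low, at 4.69, 3.44, 5.84, 6.88 and 3.84 TPM in control and 4.0, 4.47, 2.18, 4.10 and 3.02 TPM in mutant centroblasts. In centrocytes it stayed near or below 1 TPM, at 0.20, 1.0, 0.45, 0.61 and 1.08 TPM in controls and 0.67, 1.59, 0.66, 0.96 and 1.45 TPM in mutants. Its genotype differences in log2(TPM + 1) were -0.38 in centroblasts (adjusted p = 0.206) and 0.31 in centrocytes (adjusted p = 0.770). Batf3, the short relative of Batf known from dendritic cells, was listed at 0 in 4 control and 3 mutant centroblast libraries and in 2 control and 1 mutant centrocyte libraries. It reached 1 TPM in 1 control and 1 mutant centrocyte library, with 1.76 TPM as the highest value.

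In centroblasts the genotype test called 5 of the 7 tested members, 4 lower (Fos, Fosb, Jun and Jund) and 1 higher (Batf), where 3.38% of all genes tested were called lower and 0.905% higher. In centrocytes it called 2, Fos lower and Batf higher, where 0.307% of all genes were lower and 0.896% higher. The groups of 5 did not overlap for 3 members in centroblasts (3.74% of all genes) and for 3 in centrocytes (4.63%). All genes tested had a median difference of -0.16 in centroblasts and 0.02 in centrocytes in log2(TPM + 1), so that Fos lay 1.18 below and Batf 1.003 above the median gene in centroblasts. Rescaling changed the split of all centroblast calls from 103 higher and 385 lower to 286 and 353, and that of centrocyte calls from 102 and 35 to 148 and 52. Without mutant centroblasts 4 and 5 the centroblast test called 3 members, Fos, Jun and Batf, with Fos at -1.12 and Batf at 1.02. Of the 11352 genes tested in that fit, 244 were called higher and 165 lower. The test of the difference between the genotype effects in the 2 cell types called 0 of the 7 members (limma; 1 member, Atf3, had an unadjusted p under 0.05) and 0.0176% of all genes. The difference of the effects, centrocyte minus centroblast, was 0.23 ± 0.25 for Fos, -0.12 ± 0.18 for Batf and 0.56 ± 0.29 for Jun, and the adjusted p of Jun and of Atf3 (0.69 ± 0.29) was 0.403.

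**Figure D2:**
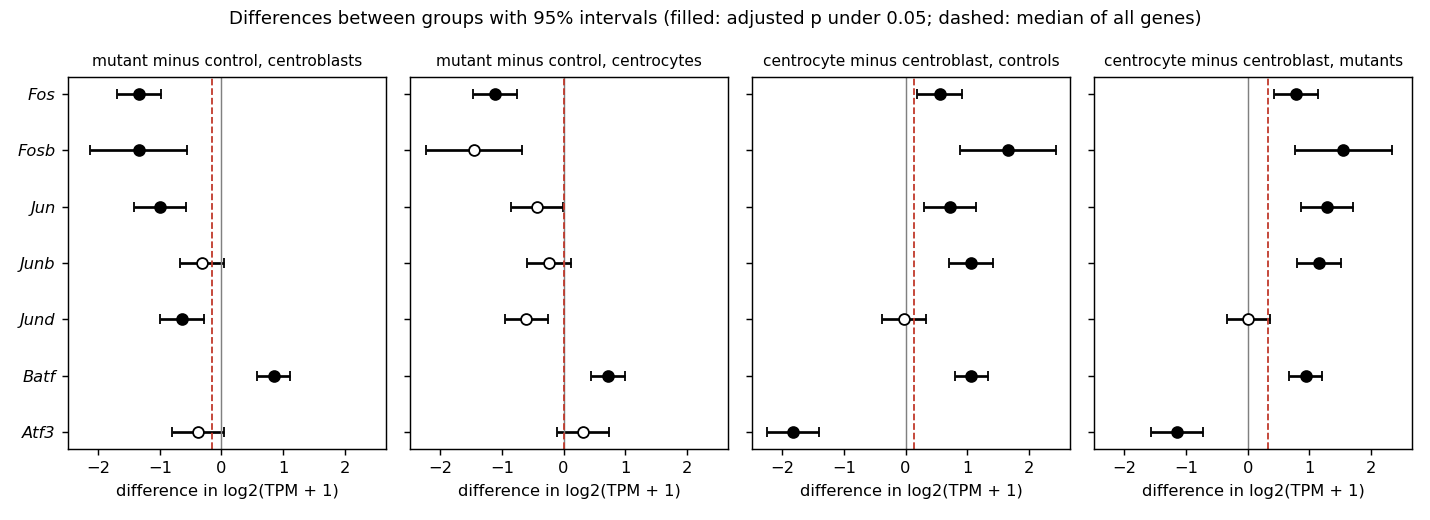
Differences in log2(TPM + 1) with 95% intervals (horizontal axis) of the 7 tested members (rows) in 4 comparisons; filled points have an adjusted p under 0.05, and the dashed line is the median of all genes. Fos and Batf are filled on opposite sides of 0 in both genotype panels, and on the same side in both panels of centrocytes against centroblasts.

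Relative to Batf, each tested FOS and JUN gene was lower in mutants. The ratio of Fos to Batf, in TPM, was 6.10 ± 1.31 in control centroblasts (4.68 to 7.98) and 1.31 ± 0.30 in mutant centroblasts (1.04 to 1.77), and 4.14 ± 0.35 in control centrocytes (3.68 to 4.54) and 1.20 ± 0.42 in mutant centrocytes (0.854 to 1.89; SD, n = 5 each). The Fos level was thus several times that of Batf in every control library, and in the mutants the 2 were of similar size, with Batf above Fos in centrocyte libraries 1 and 2. The log2 ratio of each tested FOS and JUN member to Batf, taken as log2(TPM + 1) of the member minus log2(TPM + 1) of Batf, was compared between genotypes in each cell type and between cell types in each genotype, 20 tests in all, with exact two-sided permutation tests of 5 against 5 libraries, whose smallest possible p is 0.00794. All 10 genotype tests gave that exact p (adjusted over the 20 tests by Benjamini-Hochberg, exact permutation p = 0.0132), with no overlap of the groups. For Fos in both cell types, Jun in centroblasts and Jund in centrocytes, the member and Batf already separated the genotypes in opposite directions. Their ratios to Batf therefore had to separate as well, and the ratio tests of these members add nothing to that. The added 1 makes this measure smaller in size than the log2 of the plain TPM ratio for low genes such as Fosb, whose centroblast difference was -2.19, -2.27 after rescaling and -2.64 with 0.1 added in place of 1. These 10 tests stayed called under both of these settings, and they stayed under the threshold when any single library was left out (adjusted p up to 0.0265, exact permutation) and without mutant centroblasts 4 and 5 (up to 0.0298). Groups that do not overlap stay apart when libraries are left out, and rescaling cancels in a ratio apart from the added 1. The runs with rescaling or fewer libraries could therefore hardly have lost these calls and add little to them.

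On this scale, in centroblasts the mutants' ratio to Batf was lower by 2.18 for Fos, 2.19 for Fosb, 1.84 for Jun, 1.49 for Jund and 1.16 for Junb. In centrocytes it was lower by 1.83 for Fos, 2.17 for Fosb, 1.16 for Jun, 1.32 for Jund and 0.949 for Junb. Every one of these differences contains the rise of Batf itself, 0.845 in centroblasts and 0.721 in centrocytes. They are thus not independent of each other or of the Batf result. The Batf term is most of the difference for Junb and Jund in both cell types and for Jun in centrocytes. Junb, which can pair with either Fos or Batf, exceeded Batf about as far in both control groups (2.12 ± 0.50 in centroblasts, 2.07 ± 0.33 in centrocytes) and was near parity with it in both mutant groups (0.918 ± 0.16 and 1.10 ± 0.34; SD, n = 5 each). Jund went from 3.25 ± 0.99 times Batf in control centroblasts to 1.12 ± 0.24 in mutant centroblasts, and from 1.45 ± 0.18 to 0.594 ± 0.19 in centrocytes, where every mutant library had less Jund than Batf.

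**Figure D3:**
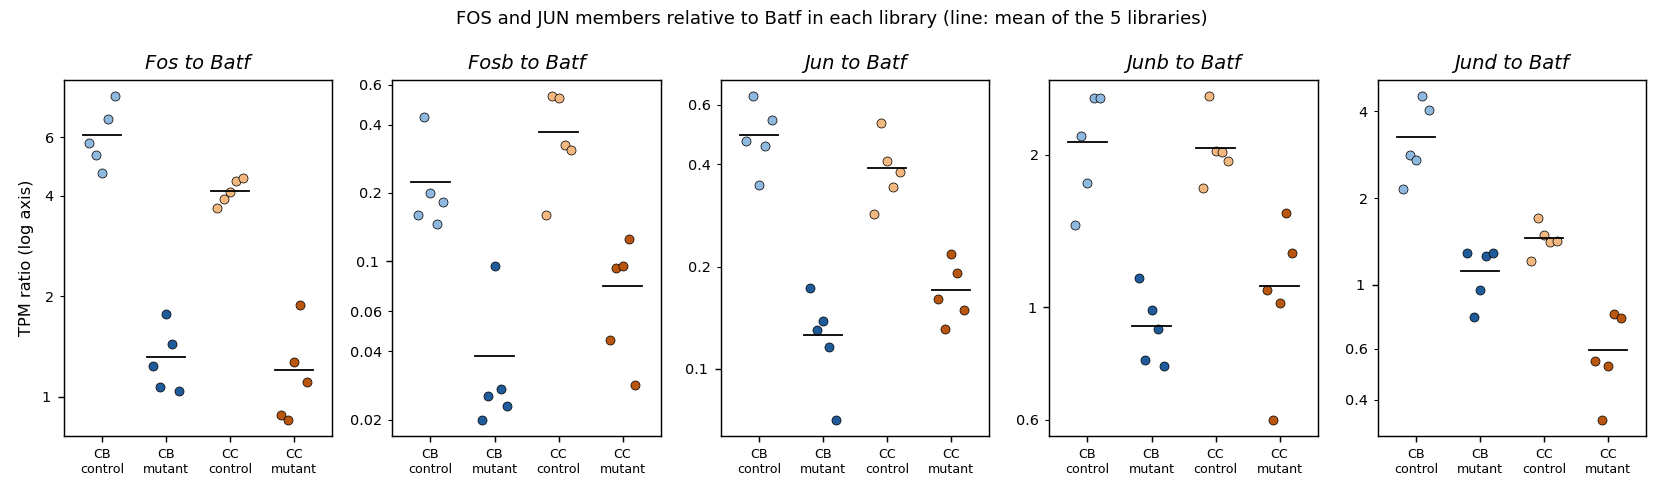
Ratio of the TPM of Fos, Fosb, Jun, Junb and Jund to that of Batf in each library (vertical log axes); lines are means of 5. In each panel and each cell type the 5 mutant libraries lie below the 5 controls, as for Fos at 1.04 to 1.77 in mutant against 4.68 to 7.98 in control centroblasts.

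As parts of the summed TPM of the 9 genes, Fos made up 45.7% ± 4.10 in control and 28.5% ± 4.42 in mutant centroblasts, and 44.0% ± 3.73 and 28.4% ± 4.16 in control and mutant centrocytes. Batf went from 7.72% ± 1.45 to 22.0% ± 2.60 in centroblasts and from 10.7% ± 1.02 to 25.0% ± 5.44 in centrocytes. Jund made up 24.0% ± 3.45 and 24.3% ± 4.64 in control and mutant centroblasts, and 15.3% ± 0.75 and 14.1% ± 2.42 in control and mutant centrocytes. The sum itself was 387 ± 66.5 TPM in control and 245 ± 41.1 TPM in mutant centroblasts, and 585 ± 48.2 and 423 ± 55.0 TPM in control and mutant centrocytes (SD, n = 5 each). In each cell type the mutants thus had a lower sum, a smaller share of Fos and a larger share of Batf.

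**Figure D4:**
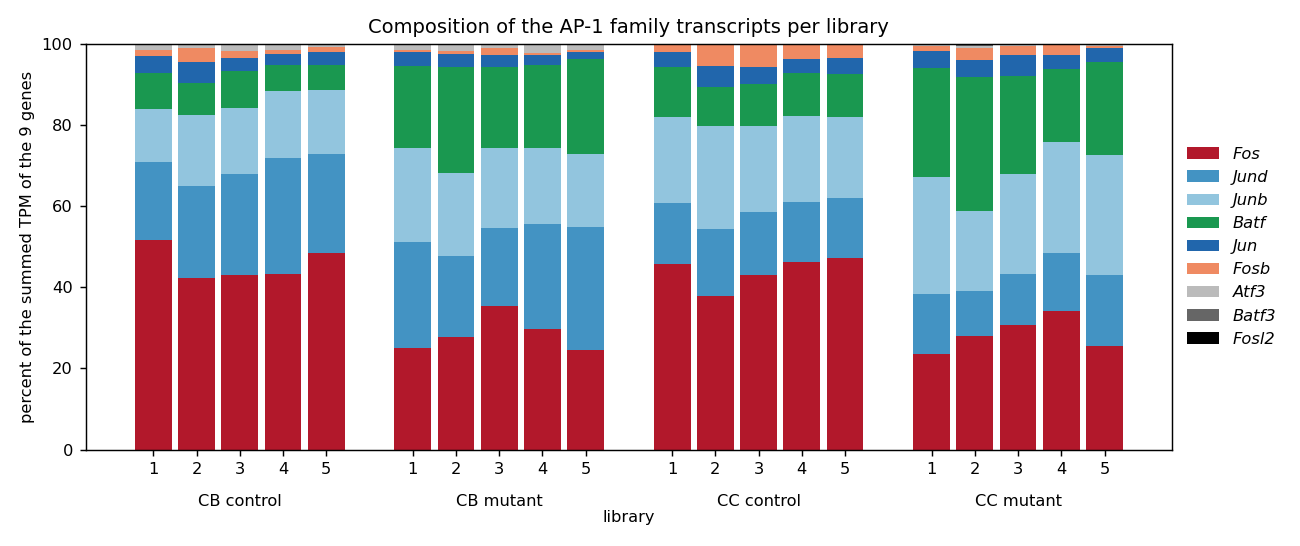
Share of each gene in the summed TPM of the 9 genes (vertical axis, percent) in each of the 20 libraries, by group. The share of Batf is between 6.07% and 12.4% in the control libraries and between 18.01% and 32.8% in the mutant libraries, and that of Fos is 37.96% or more in the controls and 35.5% or less in the mutants.

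The order of the levels also differed. In control centroblasts it was Fos, Jund, Junb, Batf, Jun, Fosb, Atf3, with the ranges of Jund and Junb, Jun and Fosb, and Fosb and Atf3 overlapping. In mutant centroblasts it was Fos, Jund, Batf, Junb, Jun, Atf3, Fosb, where Fos and Jund, Jund and Batf, Batf and Junb, Jun and Atf3, and Atf3 and Fosb overlapped. In control centrocytes it was Fos, Junb, Jund, Batf, Jun, Fosb, Atf3, and no neighbours among the first 5 overlapped. In mutant centrocytes it was Fos, Junb, Batf, Jund, Jun, Fosb, Atf3, with Fos, Junb and Batf overlapping. Batf3 and Fosl2 were last in each group.

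Fos and Batf, which differed in opposite directions by genotype, were both higher in centrocytes than in centroblasts. In controls, centrocytes had more Fosb (difference in log2(TPM + 1) 1.66 ± 0.38, limma adjusted p = 0.00219), Batf (1.07 ± 0.13, adjusted p = 2.94e-06), Junb (1.07 ± 0.17, adjusted p = 8.50e-05), Jun (0.73 ± 0.20, adjusted p = 0.00954) and Fos (0.55 ± 0.17, adjusted p = 0.0198) than centroblasts. Atf3 was lower by 1.83 on this scale, with 4.93 ± 1.42 TPM in centroblasts and 0.668 ± 0.37 TPM in centrocytes (limma adjusted p = 9.46e-07), and Jund differed by -0.03 (95% interval -0.38 to 0.33, adjusted p = 0.920). Atf3 reached 1 TPM in 5 libraries of each centroblast group but in only 2 of each centrocyte group. It thus passed the filter only through centroblasts, where it is high, and its calls between cell types are a description only. The Fos call missed the threshold after rescaling (0.41, adjusted p = 0.0505) and without control centrocyte library 5 (adjusted p = 0.0533).

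In mutants the same 6 members were called in the same directions. Jun was higher by 1.29 ± 0.20 in centrocytes (limma adjusted p = 2.45e-05), Junb by 1.15 ± 0.17 (adjusted p = 1.36e-05), Batf by 0.94 ± 0.13 (adjusted p = 4.78e-06), Fosb by 1.55 ± 0.38 (adjusted p = 0.00142) and Fos by 0.78 ± 0.17 (adjusted p = 6.80e-04). Atf3 was lower by 1.14 (adjusted p = 8.99e-05), and Jund differed by 0.01 as deposited and by -0.34 after rescaling (adjusted p = 0.134). These 6 calls, 5 higher and 1 lower in each genotype, stand against a background in controls of 21.2% of all genes called higher and 9.48% called lower, and in mutants of 48.8% and 12.6%. The 1 lower call is that of Atf3, which passed the filter only through centroblasts. The median of all genes was 0.14 in controls and 0.34 in mutants, and after rescaling the splits of higher and lower calls were 2048 and 2009 in place of 2419 and 1079, and 3376 and 3281 in place of 5561 and 1436. Jun, Junb, Batf and Atf3 had no overlap between the cell types in either genotype, as had 26.5% of all genes in controls and 36.6% in mutants.

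Relative to Batf, Fos and Jund were lower in control centrocytes than in control centroblasts. In controls the log2 ratio to Batf, on the log2(TPM + 1) scale, was lower in centrocytes by 0.516 for Fos and by 1.09 for Jund (exact permutation, adjusted p = 0.0132 each), while that of Junb differed by -0.000676 (adjusted p = 0.992), with 2.12 ± 0.50 and 2.07 ± 0.33 as the means of its TPM ratio (SD, n = 5 each). In mutants Jund was lower against Batf by 0.93 (exact permutation, adjusted p = 0.0244), a call lost without mutant centroblast library 1, 4 or 5 (adjusted p = 0.0611). The Fos ratio differed by -0.161 there (adjusted p = 0.56). The remaining ratios, of Fosb and Jun in controls and of Fosb, Jun and Junb in mutants, gave adjusted p between 0.17 and 0.467 by the same exact permutation tests.

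Other transcripts also moved with these comparisons. Germinal centre B cell markers were high in all libraries, with a summed level of 11070 to 14390 TPM over 11 genes. Erythroid markers, summed over 10 genes, ranged from 36.3 to 281 TPM in control and 331 to 826 TPM in mutant centroblasts, and from 54.5 to 284 TPM in control and 245 to 602 TPM in mutant centrocytes; 3 of 6 tested rose in mutant centroblasts and 1 of 6 in mutant centrocytes, and the alpha globin genes Hba-a1 and Hba-a2 were listed at 0. Macrophage and granulocyte markers, summed over 12 genes, ranged from 42.2 to 62.4 TPM in control and 40.9 to 87.1 TPM in mutant centroblasts, and from 104 to 202 TPM in control and 82.9 to 202 TPM in mutant centrocytes. Of these markers 0 of 9 tested were called by genotype in either cell type (limma) and 7 of 9 rose in centrocytes in each genotype. Naive and memory B cell markers rose in centrocytes too, 8 of 10 in controls and 9 of 10 in mutants, T cell markers rose in 3 and 2 of 4 tested, and of the plasma cell markers 2 rose and 2 fell of 7 in controls. Of 11 T cell markers only Lck, Cd5, Cd3g and Thy1 passed the filter, the last 2 with group means of 1.5 TPM or less. Lck made up most of their summed level, with 146 of 150.3 TPM in control centroblasts and 223 of 233.2 TPM in control centrocytes. Mutant centroblasts 4 and 5 stood apart in composition: ribosomal protein genes took 11.1% and 15.0% of their TPM, beside 6.37% to 8.74% in the others. The part of these transcripts in the members' differences was not tested, and in bulk RNA fewer cells of a kind and less RNA per cell cannot be told apart.

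Genes around AP-1 were described from 6 lists. Beside their genotype counts stand the 3.38% of all genes called lower and 0.905% called higher in mutant centroblasts. In mutant centrocytes these shares were 0.307% and 0.896%. The list of immediate early genes, which like Fos respond within minutes to a signal, had 10 of 24 tested genes lower and 0 higher in mutant centroblasts, and 2 lower and 0 higher in mutant centrocytes. Its median difference in log2(TPM + 1) was -0.37 in centroblasts, beside -0.16 for all genes, and -0.22 in centrocytes, beside 0.02. In centroblasts it was -0.18 without mutant centroblasts 4 and 5, beside -0.02 for all genes, and -0.20 after rescaling, beside 0.01. Dusp1, a phosphatase that switches off MAP kinases, fell by 1.02 ± 0.12 in centroblasts, from 55.9 ± 4.27 to 27.4 ± 4.87 TPM (limma adjusted p = 9.51e-05), and by 0.81 ± 0.12 in centrocytes (adjusted p = 0.00165). Ppp1r15a, a stress-induced phosphatase subunit that restores translation, fell by 0.87 ± 0.14 in centroblasts (adjusted p = 0.00143) and by 0.61 ± 0.14 in centrocytes (adjusted p = 0.0247), in both without overlap. Zfp36, which destabilises mRNAs such as that of Fos, fell by 0.73 ± 0.13 in centroblasts (adjusted p = 0.00486; 0.0771 in the centroblast libraries alone), and in centrocytes had 441 ± 38.9 TPM in controls and 314 ± 43.1 TPM in mutants (adjusted p = 0.0696). Klf2, a quiescence and trafficking factor that is also on the list of naive and memory B cell markers, fell by 1.21 ± 0.20 in centroblasts (adjusted p = 0.002). Btg2, Egr1, Ier5, Klf4, Klf6 and Zfp36l2 made up the 10. Over 28 alternatives the centroblast calls of Dusp1, Ppp1r15a and Klf2 and the centrocyte call of Dusp1 stood (limma adjusted p up to 0.0438), while the centrocyte call of Ppp1r15a was lost without any one of control centrocytes 1, 3, 4 and 5 or mutant centrocytes 1, 2, 3 and 5 (adjusted p up to 0.0882). Without mutant centroblasts 4 and 5 the centroblast count was 5 (Dusp1, Zfp36, Btg2, Klf2 and Ppp1r15a) and the centrocyte count 6, and after rescaling they were 9 and 5, with none higher. Of all genes, 165 and 128 of 11352 were lower in centroblasts and centrocytes without those 2 libraries. After rescaling 353 and 52 of 11386 were lower, beside 385 and 35 in the main fit.

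The kinase paths upstream gave fewer calls, beside the same 3.38% of all genes called lower in mutant centroblasts. Of 22 genes of the RAS and ERK path that leads to Fos, 2 were lower in mutant centroblasts: Rasgrp1, which activates RAS behind the B cell receptor, by 0.64 ± 0.17 (limma adjusted p = 0.0345), and Srf, which binds the CArG box of immediate early genes, by 0.47 ± 0.13 (adjusted p = 0.0399). None of the 22 was called in centrocytes (limma, 1 with an unadjusted p under 0.05). Of 20 genes of the JNK and p38 path that leads to Jun, 0 were called in either cell type (limma; 11 and 1 with an unadjusted p under 0.05), with a median of -0.34 in centroblasts, beside -0.16 for all genes; it was -0.105 without mutant centroblasts 4 and 5, beside -0.02, and -0.165 after rescaling, beside 0.01. Of 23 other genes of the basic leucine zipper class 1 was called in mutant centroblasts, a share near that of all genes. It was Atf4, the factor of the integrated stress response, lower by 0.34 ± 0.09 (limma adjusted p = 0.0459). In centrocytes 0 of the 23 were called (limma, 1 with an unadjusted p under 0.05). Of 14 partners and inducers of BATF, Stat5b fell by 0.58 ± 0.13 (adjusted p = 0.0213) and Nfkb1, the p105 subunit gene of NF-kB, by 0.50 ± 0.14 (adjusted p = 0.0459) in centroblasts, with 0 called in centrocytes (limma, 2 with an unadjusted p under 0.05). So the rise of Batf in mutants went without a called rise on this list: Irf4, chosen outside the naming rule because BATF binds with it, had 25.2 ± 4.60 TPM in control and 20.9 ± 10.3 TPM in mutant centroblasts, and 66.8 ± 9.77 and 77.0 ± 15.7 TPM in control and mutant centrocytes (SD, n = 5 each; limma adjusted p = 0.2797 and 0.9998). Of 11 heat shock genes 0 were called by genotype in either cell type (limma; 3 and 2 with an unadjusted p under 0.05). Without mutant centroblasts 4 and 5, the centroblast calls of the RAS and ERK list and of the basic leucine zipper list were 0 and that of the BATF list was 1 (Stat5b). The calls of Atf4, Nfkb1, Srf and Rasgrp1 were each lost in 22, 21, 14 and 8 of 28 alternatives, among them the omission of control centroblasts 2, 3, 4 or 5 or mutant centroblast 4, with an adjusted p of up to 0.272 (limma), and that of Stat5b without control centroblast 4 and in the centroblast libraries alone (adjusted p = 0.209). In the fit without mutant centroblasts 4 and 5 Jdp2, Il2rg and Hspd1 were called higher in mutant centrocytes, as were 259 of 11352 genes tested. After rescaling the centroblast calls were Rasgrp1 and Elk4, 3 of the JNK and p38 list (Map3k5, Tab2 and Mapk14, all lower), 0 of the basic leucine zipper list, 4 of the BATF list (Stat5b, Jak1, Nfkb1 and Rel, all lower) and 1 heat shock gene, Bag3, higher. Of all 11386 genes, 353 were then called lower and 286 higher in centroblasts.

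**Figure D5:**
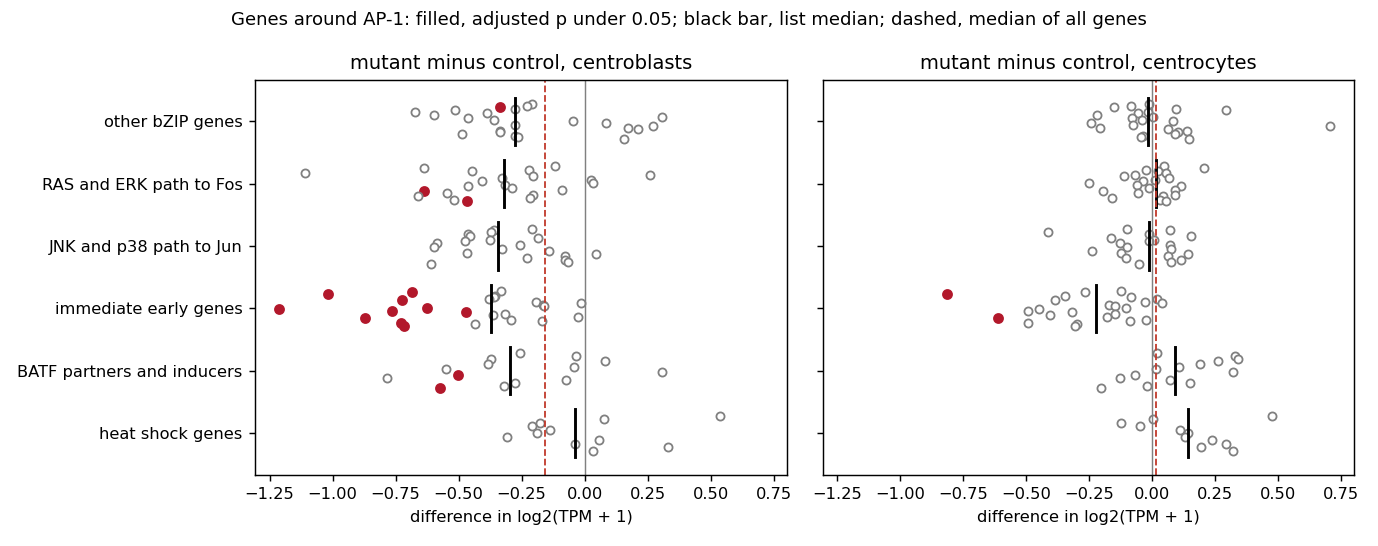
Difference between mutant and control in log2(TPM + 1) (horizontal axis) of each tested gene of 6 lists (rows), in centroblasts and centrocytes; filled points have an adjusted p under 0.05, black bars are list medians and the dashed line the median of all genes. The immediate early genes have 10 filled points in centroblasts and 2 in centrocytes, all below 0, and the heat shock genes have none.

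In the comparison of cell types in controls, 14 of the 24 immediate early genes were higher in centrocytes and 2 lower (median 0.52, beside 0.14 for all genes). Nr4a1, a nuclear receptor induced by antigen receptor signals, rose by 1.89 ± 0.20 (limma adjusted p = 4.26e-07), and the zinc finger factors Egr2 and Egr3 by 2.10 ± 0.24 and 2.73 ± 0.32 (adjusted p = 1.52e-06 and 1.76e-06). None of these 3 was called by genotype: Egr3 had 5.06 ± 1.84 and 5.47 ± 3.29 TPM in control and mutant centroblasts, and 38.9 ± 12.6 and 39.6 ± 11.4 TPM in control and mutant centrocytes (SD, n = 5 each). Of the BATF partners and inducers 7 of 14 were higher in centrocytes and 1 lower, with Il2rg, the common cytokine receptor chain, at 1.09 ± 0.12, its kinase Jak3 at 1.004 ± 0.15 and the interleukin-21 receptor gene Il21r at 0.72 ± 0.13 (adjusted p = 7.39e-07, 4.30e-05 and 2.33e-04), and Stat5b lower by 0.35, a call lost in 19 of 28 alternatives. Irf4 was higher by 1.38 ± 0.25 (adjusted p = 2.46e-04). Of the JNK and p38 list 6 of 20 were higher and 1 lower, among the higher Map3k1 (1.62 ± 0.26), Mapkapk3 (0.54 ± 0.12) and Mapk11 (0.53 ± 0.12). The RAS and ERK list had 2 of 22 higher, Elk1 (0.66 ± 0.12) and Elk3 (0.40 ± 0.14), which are partners of SRF, and 2 lower, one of them Hras1, which fell by 0.45 ± 0.12. Of the other basic leucine zipper genes 5 of 23 were higher, among them Atf2 (0.43 ± 0.12) and Crem (0.43 ± 0.14); the calls of Elk3 and Crem were lost in 9 and 4 alternatives. Of the heat shock genes 4 of 11 were higher, led by Hspd1 (0.59 ± 0.10) and Hspa5 (0.69 ± 0.14), and Dnajb1 was lower by 0.33. Beside these counts stand the 21.2% of all genes higher and 9.48% lower in controls, which 5 of 23 basic leucine zipper genes hardly exceeded. In mutants, where 48.8% of all genes were higher and 12.6% lower, the counts higher and lower were 19 and 1 of the immediate early genes, 12 and 0 of the BATF list, 13 and 1 of the JNK and p38 list, 16 and 1 of the RAS and ERK list, 9 and 0 of the basic leucine zipper list and 6 and 1 of the heat shock list. After rescaling, the lists in controls had 14 and 2, 7 and 1, 5 and 1, 2 and 4, 4 and 4, and 2 and 1 in the same order, and in mutants 15 and 2, 10 and 1, 8 and 2, 11 and 6, 8 and 5, and 2 and 1. Of all 11386 genes, 2048 were then higher and 2009 lower in controls, and 3376 and 3281 in mutants. Without mutant centroblasts 4 and 5, where 5417 of all genes were called in controls in place of 3498, the lists in controls had 16 and 2, 11 and 1, 7 and 1, 13 and 2, 9 and 1, and 5 and 1. Of the 11352 genes tested in that fit, 3793 were higher and 1624 lower in controls, so the list counts rose together with those of all genes.

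Fos and Batf lie on the same chromosome. Fos is at chr12:85473890-85477274 and Batf at chr12:85686720-85709087 (GRCm38.p6), 209 kb apart, with the coding gene Jdp2 (chr12:85598656-85639878) between them. JDP2 is a repressor of the AP-1 family that pairs with JUN proteins. Jdp2 had 10 ± 1.66 and 12.7 ± 3.84 TPM in control and mutant centroblasts, and 8.35 ± 2.77 and 13.9 ± 2.80 TPM in control and mutant centrocytes (SD, n = 5 each), differences of 0.27 (limma adjusted p = 0.372) and 0.71 (adjusted p = 0.131) in log2(TPM + 1). So of these 3 neighbours Fos fell, Batf rose and Jdp2 was not called; it was called higher in mutant centrocytes without mutant centroblasts 4 and 5. Fosb is on chromosome 7, Jun on chromosome 4, Junb and Jund on chromosome 8, and Batf3 and Atf3 lie close together on chromosome 1 (191098414 to 191108943 and 191170296 to 191183333).

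Among 8427 genes whose mean reached 5 TPM, and over the 20 libraries, those whose log2(TPM + 1) was most like that of Fos were Ppp1r15a (Pearson r = 0.954), Mgll (0.915), Dusp1 (0.903), Zfp36 (0.899) and Opn3 (0.897). Those most like Batf were Sub1 (r = 0.928), Smyd2 (0.918), Arid5a (0.914), Srm (0.913) and Fxyd5 (0.913). The libraries fall into 4 groups that these genes also separate, so the correlations describe the group pattern and carry no p. Taken as deviations from the group means, r with Fos was 0.817 for Ppp1r15a, 0.762 for Mgll, 0.686 for Zfp36, 0.612 for Dusp1 and 0.447 for Opn3, and r with Batf was 0.69 for Arid5a, 0.563 for Srm, 0.485 for Sub1, 0.288 for Fxyd5 and 0.258 for Smyd2. Ppp1r15a, Dusp1 and Zfp36 are on the list of immediate early genes, and no gene was among the 5 of both.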

How the data were processed

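RNA was sequenced from 20 libraries, 5 for each combination of cell type and genotype, grouped by their titles and genotype labels. Per the labels' protocols a TruSeq stranded mRNA kit was used, and per the submitters' processing notes STAR and the build mm10; their versions, the annotation and the counting tool were not given in the sources used here. The deposited files give TPM per gene symbol as the authors computed it, with the same sum in every library. TPM keeps no read depth, so the depth is unknown and no counting interval is given. Two-sided tests used limma 3.58.1 (R 4.3.3), with a moderated variance (trend and robust options) on log2(TPM + 1), for every gene that reached 1 TPM in 5 or more libraries, with 4 group means (16 residual degrees of freedom) and Benjamini-Hochberg adjusted p under 0.05 as the threshold. The pseudocount of 1 makes fold changes of low genes look smaller. The fit was tested on simulated data. Ratios to Batf were compared by exact permutation tests. Named were the 9 members, up to 4 called genes per list by genotype and up to 3 for the cell types in controls, by adjusted p, and the 5 genes most like Fos and Batf; Irf4, Jdp2 and the complete sets of small counts were named after their values were seen. One result that the rule names is not reported here. The members and lists were chosen with earlier results of these data known. Alternatives were another pseudocount (0.1), no filter or 5 TPM, median-of-ratios scaling, no trend or robust step, the groups compared alone, a replicate block, and leaving out each library or mutant centroblasts 4 and 5; those for the lists and the genes named from them were chosen after seeing the data. No protein sequence was used here.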

Additional observations from a re-analysis of the deposited data

Results flagged for a closer look

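In 28 groups of 5 libraries (7 members in 4 groups) the highest or lowest library was compared with the rest by Dixon's criterion, which chance meets in about 1 in 20 groups. It was met in 2. Fosb in mutant centroblast library 3 was 5.23 TPM, beside 1.07 to 1.85 TPM in the other 4. Jun in mutant centrocyte library 3 was 23.2 TPM, beside 14.9 to 17.3 TPM in the other 4. Both libraries lay within the range of the controls of their cell type. Without mutant centroblast library 3 the difference of Fosb in log2(TPM + 1) between genotypes in centroblasts was -1.64 (limma adjusted p = 0.0199), and without mutant centrocyte library 3 that of Jun in centrocytes was -0.54 (adjusted p = 0.468).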

How the results depend on the processing

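Fos and Batf kept their direction and their call by genotype in both cell types under every alternative run. The 10 genotype tests of ratios to Batf kept theirs too, which rescaling or leaving libraries out could hardly have changed. Of the counts, the members called by genotype in centroblasts went from 5 to 3 with no filter, 3 with no trend or robust step, 2 in the centroblast libraries alone and 3 without mutant centroblasts 4 and 5. All genes called there went from 488 to 270 with no filter, 24 in the centroblast libraries alone and 793 with the replicate block. In centrocytes they went from 137 to 83 with a pseudocount of 0.1, 84 with a filter of 5 TPM, 301 in the centrocyte libraries alone, 242 with the replicate block and 387 without mutant centroblasts 4 and 5. For the difference of the genotype effects they went from 2 to 0 after scaling, 0 with no trend or robust step, 14 with the replicate block and 4 without mutant centroblasts 4 and 5, and 1322 genes had an unadjusted p under 0.05. Between cell types in controls they went from 3498 to 5417 without mutant centroblasts 4 and 5. Leaving out 1 library gave 147 to 3102 genes in centroblasts (147 without control 2, 3102 without mutant 1, and over 1.5 times from the main count also without controls 3, 4 or 5 or mutants 2 or 4) and 3 to 5 members (3 without controls 2 to 5 or mutant 4), 44 to 238 genes in centrocytes (44 without mutant centrocyte 2, 238 without mutant centroblast 5) and 0 to 7 for the difference. Reversals were of differences near 0 that were not called: for the difference of the effects, Fosb from -0.10 to 0.195 with a pseudocount of 0.1, Junb from 0.08 to -0.126 after scaling and -0.172 without mutant centroblasts 4 and 5, and Jund from 0.04 to -0.17 after scaling; and between cell types in mutants, Jund from 0.01 to -0.34 after scaling and -0.0154 without mutant centroblasts 4 and 5. Leaving out 1 library gave -0.34 to 0.19 for Fosb, -0.0226 to 0.223 for Junb and -0.0943 to 0.189 for Jund in the difference of the effects, -0.18 to 0.11 for Jund and -0.125 to 0.0799 for the ratio of Junb to Batf between cell types in controls, and -0.0833 to 0.109 for Jund in mutants. The cause was not tested. Read depth, which TPM does not keep, limits Fosl2, Batf3 and Atf3 in centrocytes.

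All groups share the replicate numbers 1 to 5. Deviations from the group means of centroblasts and centrocytes with the same number correlated at -0.0168 to 0.259 in controls and -2.93e-05 to 0.269 in mutants (over 0.1 for 4 of 5 numbers in each), beside means of -0.0404 and -0.0433 for other pairs, and 4 control and 2 mutant numbers correlated best with their own. The means for the same number were 0.162 in controls and 0.175 in mutants, above those of other pairs. The numbers were not taken to pair the libraries only because not all 5 were over 0.1 in each genotype. Whether libraries with the same number shared a mouse is not known, and the main tests between cell types ignore any such pairing. With the replicate block the members called by genotype were the same 5 in centroblasts, and in centrocytes Fosb was called as well (-1.45, limma adjusted p = 0.00258). For these genotype tests the block was the number alone, which joined controls and mutants that no label links. In these tests it is thus not an adjustment for libraries from the same mouse. Between cell types the block instead joined centroblasts and centrocytes of the same number and genotype. The same 6 members were then called in each genotype, where 4203 of all genes were called in controls and 7322 in mutants. Fos in controls had a limma adjusted p of 0.00629. The difference of the genotype effects still called 0 members.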
